A study of Homo sapiens with 12 samples.

Results

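The genes described here serve the unfolded protein response and protein folding in the endoplasmic reticulum (ER). They were taken from a list of 32 genes with 4 roles: stress sensors with the factor XBP1, chaperones with glycoprotein folding factors, disulfide enzymes, and factors of ER-associated degradation. A gene counted as measured when a probe named for it had a detection p under 0.01 on at least 3 arrays, and its brightest such probe was used. This held for 28 of the 32 genes, among 10710 genes measured in all. The probes for ERN1 (1 probe), PDIA3 (1 probe) and DERL3 (2 probes) passed on 0 arrays, and HERPUD1 had no named probe. Because a gene had to be detected on 3 arrays to enter, one that was bright in a single group could enter through that group, and DNAJC3 did so through the testosterone-treated groups.

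The samples were VCaP cells, an established human prostate cancer line that responds to androgen and carries a TMPRSS2-ERG fusion. Each group had 3 bead arrays, all from cells kept in 2.5% charcoal-stripped serum for 100 h and with siRNA for 96 h. The 4 groups were the control siRNA (siSCR) without hormone, siSCR with 100 nM testosterone for 16 h, an siRNA pool against PIAS1 (siPIAS1) without hormone, and siPIAS1 with the same testosterone treatment. PIAS1 is a SUMO ligase known to bind the androgen receptor, and the design asks how its depletion alters the response to testosterone. Nothing in the labels says whether replicates were separate cultures, so the p-values measure the spread between these samples, which may be technical. One cell line and one siRNA pool limit what each group stands for, and in bulk RNA fewer cells of a type and less RNA per cell cannot be told apart.

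Secreted and membrane proteins fold in the ER, where BiP and its partners hold unfolded chains, lectin chaperones bind their sugar trees, and disulfide isomerases pair their cysteines. Unfolded chains release BiP from 3 sensors, ATF6, IRE1 (ERN1) and PERK (EIF2AK3). ATF6 is cut to free a transcription factor, IRE1 splices XBP1 mRNA so that it codes for another, and PERK slows translation. Both factors act on promoters of chaperone and degradation genes, and prostate luminal cells, which secrete much protein, depend on this machinery.

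These factors are known to read the ER stress response elements ERSE (CCAAT and CCACG with any 9 bases between) and ERSE-II (ATTGG and CCACG with any 1 base between), and the unfolded protein response element UPRE (TGACGTGG). All 3 were searched on both strands of RefSeq promoter windows (GRCh38.p14, 250 bases before to 50 after an annotated start), where 29 of the 32 listed genes had a window. ERSE was found in 7 members (24.1%), against 0.0769% of all 35116 windows and 0.173% of measured genes. ERSE-II was found in 3 members (10.3%), against 0.0541% of windows and 0.150% of measured genes. UPRE was found in 2 members (6.90%), against 0.729% of windows and 1.28% of measured genes. The shares of members and of measured genes count a gene once, also where it has several windows. The members were listed as genes of the response that these known elements serve, so their higher shares are not an independent test. HSPA5 and HYOU1 are shown with the 250 bases before their start because their responses differ most from each other in control cells among the chaperones of the BiP cycle that carry an exact motif. Capitals mark the fixed letters of a motif on either strand, and in HYOU1 the UPRE overlaps the first of the ERSE-II copies.
HSPA5 (chr9:125241344-125241593, minus strand): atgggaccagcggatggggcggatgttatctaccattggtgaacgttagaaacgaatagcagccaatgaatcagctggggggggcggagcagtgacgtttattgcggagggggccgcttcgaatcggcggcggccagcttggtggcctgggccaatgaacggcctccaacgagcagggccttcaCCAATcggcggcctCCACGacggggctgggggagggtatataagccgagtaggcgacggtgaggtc
HYOU1 (chr11:119057206-119057455, minus strand): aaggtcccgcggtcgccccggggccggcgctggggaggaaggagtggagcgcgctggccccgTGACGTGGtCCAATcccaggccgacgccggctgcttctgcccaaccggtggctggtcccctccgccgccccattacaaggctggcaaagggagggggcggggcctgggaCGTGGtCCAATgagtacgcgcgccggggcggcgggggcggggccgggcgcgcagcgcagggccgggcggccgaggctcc

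The other ERSE matches are shown with 10 bases on either side, so that the shared letters and the variable spacer between them can be compared. Where the capitals start with CGTGG, the element lies on the strand opposite to the gene. HSP90B1 held a copy in each orientation.
XBP1 (chr22:28800593-28800631, minus strand): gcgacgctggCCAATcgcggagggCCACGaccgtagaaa
CANX (chr5:179698768-179698806, plus strand): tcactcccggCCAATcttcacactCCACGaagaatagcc
PDIA6 (chr2:10812843-10812881, minus strand): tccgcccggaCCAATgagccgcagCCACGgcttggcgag
HSP90B1, first copy (chr12:103930206-103930244, plus strand): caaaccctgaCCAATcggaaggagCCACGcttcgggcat
HSP90B1, second copy (chr12:103930311-103930349, plus strand): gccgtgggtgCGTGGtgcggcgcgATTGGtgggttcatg
CALR (chr19:12938374-12938412, plus strand): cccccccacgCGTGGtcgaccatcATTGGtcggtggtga
CRELD2 (chr22:49918544-49918582, plus strand): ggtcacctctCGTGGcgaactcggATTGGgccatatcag

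The remaining ERSE-II and UPRE matches follow. MANF held no exact motif, and its window is shown because its testosterone response differed strongly between the siRNAs. It held an ERSE-II with 1 fixed base changed, here left in lower case among the capitals, a kind of match found in 1.18% of all windows and 2.25% of measured genes.
SDF2L1, ERSE-II (chr22:21642104-21642134, plus strand): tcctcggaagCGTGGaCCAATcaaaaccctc
HERPUD1, ERSE-II (chr16:56932015-56932045, plus strand): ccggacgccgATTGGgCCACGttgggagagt
DNAJC10, UPRE (chr2:182716122-182716149, plus strand): gcgcacaccgCCACGTCAacctaaacct
MANF, ERSE-II with 1 base changed (chr3:51385168-51385198, plus strand): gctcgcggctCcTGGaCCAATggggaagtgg

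**Figure D1:**
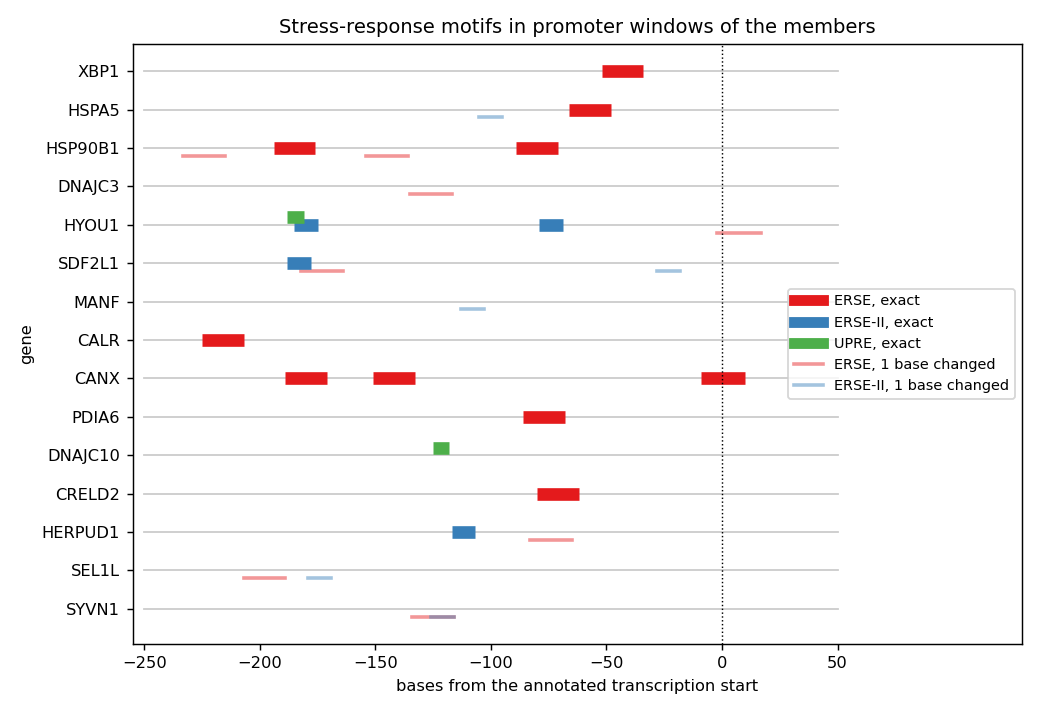
Positions of exact ERSE, ERSE-II and UPRE matches (thick bars) and of ERSE and ERSE-II matches with 1 base changed (thin bars) in the promoter windows of members with any match, in bases from the annotated transcription start. The HSPA5 ERSE lies at -66 to -48 and that of XBP1 at -52 to -34, and the 3 bars of CANX are 1 genomic site seen from different annotated starts.

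The labelled cell type was checked on marker genes. Of 14 prostate luminal markers 12 were measured, with mean log2 levels per array between 10.7 and 10.8 in siSCR, 11.2 and 11.3 in siSCR with testosterone, 10.98 and 11.13 in siPIAS1, and 11.4 and 11.5 in siPIAS1 with testosterone. Measured markers of other cells numbered 1 of 5 for basal epithelium, 2 of 8 for fibroblasts and smooth muscle, and 3 of 8 for blood and endothelium. KRT5, KRT14, KRT15, PTPRC, COL1A2, COL3A1, DCN, PECAM1 and HBB were detected on 0 arrays. Among those measured, LYZ had a mean log2 level of 8.99 in siPIAS1 with testosterone against 4.77 to 5.31 in the other groups, and LUM had 8.09 and 8.62 without testosterone against 4.91 and 4.87 with it. The mean levels per array of the measured blood and endothelial markers ran from 8.30 to 8.40 in siPIAS1 with testosterone and from 6.92 to 7.21 across the other groups, and those of fibroblasts and smooth muscle from 6.86 to 7.09 with testosterone and from 8.49 to 8.87 without. The part of these markers in the results was not tested.

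PIAS1 itself had log2 levels of 10.25, 10.37 and 10.33 in siSCR and of 9.12, 8.97 and 9.23 in siPIAS1 without testosterone, a difference of -1.21 ± 0.11 (SE, limma, adjusted p = 9.00e-06). With testosterone it had 11.32, 11.43 and 11.47 in siSCR and 10.52, 10.59 and 10.83 in siPIAS1, a difference of -0.76 ± 0.11 (adjusted p = 1.50e-04). PIAS1 rose with testosterone after both siRNAs, and its level in the treated siPIAS1 arrays lay above that of untreated siSCR. Replicate 3 of siPIAS1 with testosterone stood apart from its group (its mean correlation with the rest of the group was 0.978, and that of every other array 0.986 or more), so member calls that changed without it are given below both ways.

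Testosterone raised most of the measured folding genes after the control siRNA. Of the 28 members, 22 rose, 0 fell and 6 did not pass the threshold, an adjusted p of 0.05 in limma's moderated test over all genes. Among all genes 20.0% rose and 24.3% fell. At an unadjusted p under 0.05 the members split into 24 higher and 0 lower. The shares of all genes above are for the adjusted p, and none was counted at the unadjusted one. Without replicate 3 of siPIAS1 with testosterone, which enters this comparison through the shared error alone, 24 rose by the adjusted p. The median log2 difference was 0.55 over the members and -0.02 over all genes. In 25 members every treated array lay above every untreated array, which held for 27.4% of all genes. DNAJC3, which entered only through its detection with testosterone, is counted among the risers here and after siPIAS1. At least 2-fold increases were few, with DNAJB9, DNAJC10 and PPIB alone reaching that size. PPIB did so narrowly, and its probe was detected on only 2 of the 3 siSCR arrays.

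After siPIAS1, 24 members rose with testosterone, 0 fell and 4 did not pass, where 25.4% of all genes rose and 29.7% fell. The median log2 difference was 0.81 over the members and -0.03 over all genes. By the fit, 12 members rose at least 2-fold, among them DNAJC3, whose bound below is under 2-fold. HYOU1, DNAJC10 and DERL2, also among the 12, stayed under 2-fold by their other probes (log2 differences of 0.85, 0.70 and 0.04). Both medians stay the same with DNAJC3 at its bound. At an unadjusted p under 0.05 it was again 24 higher and 0 lower, with no share of all genes counted at that cut. Without the array that stood apart 25 rose by the adjusted p. In 24 members the treated arrays lay above all untreated ones, against 27.6% of all genes. Over both siRNAs, 20 members rose in each case, PPIB and DERL1 passed after siSCR alone, ATF6, HSPA5, UGGT1 and OS9 after siPIAS1 alone, and CALR and SEL1L in neither. Passing after one siRNA alone does not show a difference between the siRNAs, which the interaction below tests. With both responses averaged, 26 members rose and 0 fell (all genes, 28.3% and 33.0%).

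**Figure D2:**
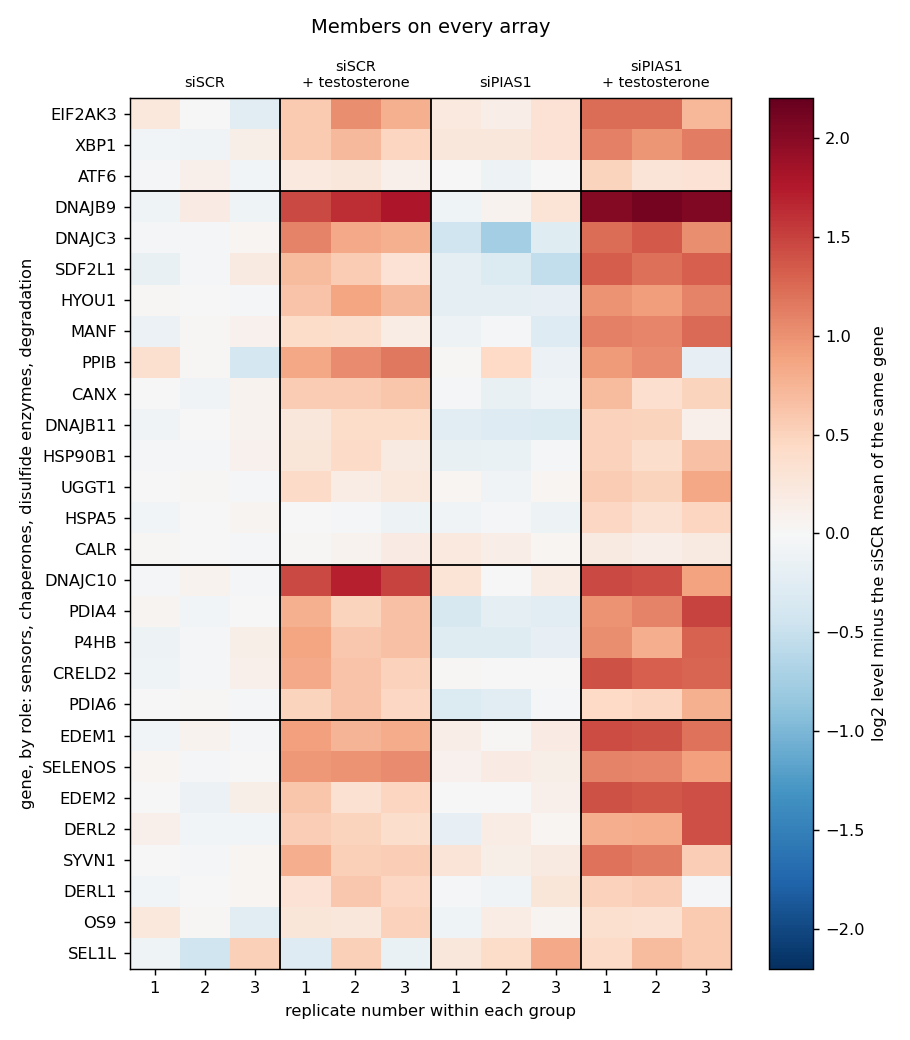
Log2 level of each measured member (rows, grouped by role) on each of the 12 arrays (columns), as the difference from the mean of the 3 siSCR arrays of the same gene. Treated arrays are mostly red in both siRNA groups, the deepest red is DNAJB9 in siPIAS1 with testosterone, and the untreated siPIAS1 arrays stay close to siSCR.

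**Figure D3:**
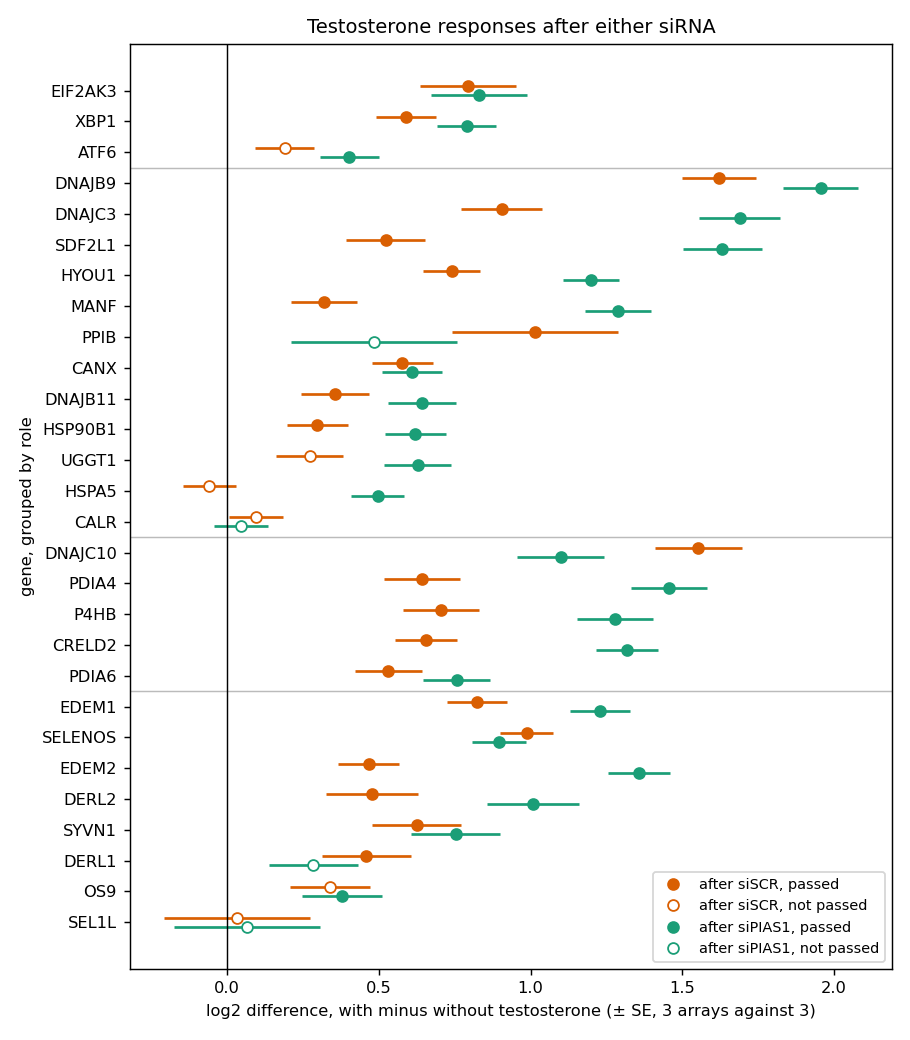
Log2 difference with minus without testosterone for each measured member, ± SE, 3 arrays against 3, after siSCR (orange) and after siPIAS1 (green), with filled points for an adjusted p under 0.05. The green point lies right of the orange one in 23 of 28 members, most widely in SDF2L1, MANF and EDEM2.

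The list of stress sensors also held XBP1, which is not itself a sensor. Of its 3 measured genes, 2 rose with testosterone after siSCR and 3 after siPIAS1. XBP1, the factor made active by IRE1, had log2 levels of 13.09, 13.07 and 13.27 in siSCR and 13.71, 13.86 and 13.62 with testosterone. In siPIAS1 it had 13.40, 13.40 and 13.47, and 14.25, 14.11 and 14.27 with testosterone. The 4 groups did not overlap and stood in the order siSCR, siPIAS1, siSCR with testosterone, siPIAS1 with testosterone. The rise of XBP1 with testosterone was 0.59 ± 0.10 with the control siRNA (adjusted p = 2.26e-04) and 0.79 ± 0.10 with siPIAS1 (1.34e-05). It was higher with siPIAS1 than with siSCR under testosterone, by 0.48 ± 0.10 (0.00250), but with each array scaled to its 75th percentile this was 0.23 and did not pass (0.152). Without testosterone the difference of 0.28 ± 0.10 did not pass (0.0826), and it passed without replicate 3 of siPIAS1 with testosterone (0.0392). A second XBP1 probe gave 0.57 after siSCR and 0.69 after siPIAS1. The files do not say whether either probe separates the spliced from the unspliced form.

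EIF2AK3, which encodes PERK, had log2 levels of 7.49, 7.27 and 7.02 in siSCR and of 7.84, 8.28 and 8.04 with testosterone. After siPIAS1 it had 7.47, 7.41 and 7.58 without and 8.48, 8.48 and 7.99 with testosterone. Its responses of 0.79 ± 0.16 and 0.83 ± 0.16 differed by 0.04 (95% interval -0.44 to 0.52). ATF6, the sensor that is itself a transcription factor precursor, differed by 0.19 ± 0.10 after siSCR, which did not pass (adjusted p = 0.131), and rose by 0.40 ± 0.10 after siPIAS1 (0.00298).

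Of the 12 chaperones and glycoprotein folding factors, 9 rose with testosterone after siSCR and 10 after siPIAS1, with median log2 differences of 0.44 and 0.64. DNAJB9, a co-chaperone of BiP that also restrains IRE1, had the largest response of all members in both cases. Its log2 levels were 7.53, 7.80 and 7.52 in siSCR, 9.08, 9.24 and 9.39 with testosterone, 7.53, 7.70 and 7.92 in siPIAS1, and 9.64, 9.72 and 9.65 in siPIAS1 with testosterone. The treated and untreated arrays were far apart, and the untreated groups overlapped. DNAJB9 rose 3.07-fold after siSCR (1.62 ± 0.12, adjusted p = 1.03e-07) and 3.88-fold after siPIAS1 (1.96 ± 0.12, adjusted p = 1.30e-08). The difference between these responses, 0.34 ± 0.17, did not pass (0.229).

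HSPA5, which encodes BiP, the central chaperone of the response, behaved unlike DNAJB9. Its log2 levels were 10.98, 11.04 and 11.09 in siSCR and 11.02, 10.99 and 10.92 with testosterone. In siPIAS1 they were 10.96, 11.01 and 10.93, and 11.49, 11.38 and 11.51 with testosterone. The first 3 groups overlapped, and the siPIAS1 arrays with testosterone lay above all others. The difference with testosterone was -0.06 (95% interval -0.24 to 0.13) after siSCR and 0.50 ± 0.09 after siPIAS1 (adjusted p = 2.76e-04). The interaction, the response after siPIAS1 minus that after siSCR, was 0.55 ± 0.12 (0.0117). HSPA5 and CALR did not pass with testosterone in siSCR although both hold an exact ERSE, as the printed sequences show.

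SDF2L1, an ER protein that works with DNAJB11 in the BiP cycle, had the largest interaction of all members. Its log2 levels were 11.26, 11.39 and 11.64 in siSCR and 12.13, 11.99 and 11.74 with testosterone. In siPIAS1 they were 11.23, 11.14 and 10.89, and 12.76, 12.64 and 12.75 with testosterone. The siPIAS1 arrays lay below the siSCR arrays without hormone and above them with it. SDF2L1 rose by 0.52 ± 0.13 after siSCR and by 1.63 ± 0.13 after siPIAS1, an interaction of 1.11 ± 0.18 (adjusted p = 0.00177). Under testosterone it was 1.70-fold higher with siPIAS1 (0.77 ± 0.13, adjusted p = 6.69e-04), and without testosterone the difference of -0.34 ± 0.13 did not pass (0.103).

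MANF, a small ER-resident and secreted protein that binds BiP, moved alike. It had log2 levels of 12.77, 12.93 and 12.99 in siSCR, 13.30, 13.29 and 13.06 with testosterone, 12.79, 12.87 and 12.61 in siPIAS1, and 14.01, 13.98 and 14.15 in siPIAS1 with testosterone. The last group lay far above the others. MANF rose by 0.32 ± 0.11 after siSCR (adjusted p = 0.0281), a call lost when any of 4 single arrays was left out (adjusted p up to 0.119, without replicate 1 of siSCR). It rose by 1.29 ± 0.11 after siPIAS1, and the interaction was 0.97 ± 0.15 (0.00132).

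DNAJC3, a co-chaperone of BiP, had a probe detected on all 6 treated arrays and on 0 untreated ones, so its untreated level is only a bound. It had log2 levels of 6.99, 6.73 and 6.67 in siSCR with testosterone and 7.13, 7.25 and 6.91 in siPIAS1 with testosterone. The treated arrays were at least 1.58-fold higher after siSCR and at least 1.90-fold higher after siPIAS1. These folds set the mean of the treated arrays against the mean of, per untreated array, the lowest detected signal or the probe's own where higher. Limma's adjusted p of 7.12e-05 and 1.40e-07 come from the fit on the undetected values and do not test these bounds, and the gene was kept only because it was detected with testosterone. The fitted interaction of 0.78 ± 0.19 (0.0176) rests on these undetected values and was 0.26 (0.316) when undetected signals were raised to the lowest detected signal.

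HYOU1, the nucleotide exchange factor of BiP, had log2 levels of 9.57, 9.55 and 9.51 in siSCR and 10.17, 10.42 and 10.26 with testosterone. In siPIAS1 they were 9.35, 9.32 and 9.37, and 10.54, 10.47 and 10.63 with testosterone. The treated arrays lay above the untreated ones in both cases. HYOU1 rose by 0.74 ± 0.09 after siSCR and by 1.20 ± 0.09 after siPIAS1, and the interaction of 0.46 ± 0.13 passed narrowly (adjusted p = 0.0405). That call was lost when any of 9 single arrays was left out (adjusted p up to 0.0960, without replicate 3 of siSCR with testosterone). It was also lost with 75th percentile scaling (0.0538), with the mean of its probes (0.239) and with the replicate number as a block (0.0665). A second probe rose by 0.84 and 0.85, with an interaction of 0.02, so the probes agree on the rise and not on a difference between the siRNAs.

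Of the other chaperones, HSP90B1, the ER member of the HSP90 family, rose by 0.30 ± 0.10 and 0.62 ± 0.10 after the control and the PIAS1 siRNA, and DNAJB11, which delivers chains to BiP, by 0.35 ± 0.11 and 0.64 ± 0.11. The siSCR calls of both were lost when single arrays were left out (adjusted p up to 0.121 for HSP90B1 without replicate 2 of siSCR with testosterone, and up to 0.0765 for DNAJB11 without replicate 1 of siSCR). PPIB, a prolyl isomerase, rose by 1.01 ± 0.27 after siSCR, and by 0.82 to 1.19 when single arrays were left out. Its probe was detected on 2 of 3 arrays in siSCR (SD 0.37) and on 2 of 3 in siPIAS1, both without testosterone. After siPIAS1 its log2 levels were 6.42, 6.84 and 6.27 without and 7.33, 7.43 and 6.21 with testosterone, a difference of 0.48 ± 0.27 that did not pass (0.150). Replicate 3 of the treated group was the low array, and without it PPIB rose by 0.87 (0.00193).

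The lectin chaperones gave different results. CANX, the membrane-bound one, had log2 levels of 10.00, 9.93 and 10.09 in siSCR and 10.56, 10.56 and 10.62 with testosterone, and rose by 0.58 ± 0.10 (adjusted p = 2.96e-04). It rose by 0.61 ± 0.10 after siPIAS1, and the responses differed by 0.03 (95% interval -0.27 to 0.34). CALR, its soluble relative, differed by 0.10 (95% interval -0.09 to 0.29) after siSCR and by 0.05 (-0.14 to 0.24) after siPIAS1, and neither passed. UGGT1, which marks misfolded glycoproteins for another round with these lectins, differed by 0.27 ± 0.11 after siSCR (0.0608, and 0.0140 without replicate 3 of siPIAS1 with testosterone) and rose by 0.63 ± 0.11 after siPIAS1 (2.87e-04). A second UGGT1 probe passed in both cases, at 0.35 (0.0355) and 0.54 (0.00211).

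All 5 measured disulfide enzymes rose with testosterone after either siRNA, with median log2 differences of 0.65 after siSCR and 1.28 after siPIAS1. DNAJC10, a reductase that prepares chains for degradation, had log2 levels of 9.30, 9.43 and 9.33 in siSCR and 10.80, 11.07 and 10.85 with testosterone. After siPIAS1 it had 9.65, 9.35 and 9.51 without and 10.80, 10.77 and 10.24 with testosterone. The treated arrays lay well above the untreated ones, and with the hormone the siPIAS1 arrays lay below the siSCR arrays, the nearest pair by less than the rounding shows. DNAJC10 rose 2.93-fold after siSCR (1.55 ± 0.14, adjusted p = 8.35e-07) and 2.14-fold after siPIAS1 (1.10 ± 0.14, adjusted p = 2.05e-05). The difference of -0.45 ± 0.20 between the responses did not pass (0.168). Replicate 3 of siPIAS1 with testosterone was the low array. Without it DNAJC10 rose by 1.28 after siPIAS1, and the difference between the responses was -0.27 (0.237). Under testosterone its difference between the siRNAs was then -0.12 (0.411). A second DNAJC10 probe rose by 1.34 and 0.70, and its difference of -0.64 between the responses did not pass (0.0791).

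PDIA4, a disulfide isomerase, and CRELD2, an ER protein induced by stress, passed the interaction. PDIA4 had log2 levels of 9.07, 8.94 and 9.01 in siSCR, 9.79, 9.50 and 9.65 with testosterone, 8.65, 8.80 and 8.76 in siPIAS1, and 10.00, 10.10 and 10.49 in siPIAS1 with testosterone. CRELD2 had 10.51, 10.58 and 10.71 in siSCR, 11.43, 11.22 and 11.10 with testosterone, 10.63, 10.59 and 10.61 in siPIAS1, and 11.998, 11.91 and 11.87 in siPIAS1 with testosterone. In both genes the siPIAS1 arrays with testosterone lay above every other array. PDIA4 rose by 0.64 ± 0.13 after siSCR and 1.46 ± 0.13 after siPIAS1, an interaction of 0.81 ± 0.18 (adjusted p = 0.0109). CRELD2 rose by 0.65 ± 0.10 and 1.32 ± 0.10, an interaction of 0.66 ± 0.15 (0.0110).

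P4HB, the founding disulfide isomerase and a subunit of prolyl hydroxylase, rose by 0.70 ± 0.13 after siSCR and by 1.28 ± 0.13 after siPIAS1. Its interaction of 0.57 ± 0.18 missed the threshold (adjusted p = 0.0565) and passed without replicate 2 of siPIAS1 with testosterone (0.0184). Without replicate 3 of that group, the array that stood apart, the interaction was 0.45 and did not pass (0.0618). PDIA6, an isomerase that binds IRE1, rose by 0.53 ± 0.11 and 0.76 ± 0.11, with a difference of 0.23 (95% interval -0.11 to 0.56).

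Of the 8 measured degradation factors, 6 rose after siSCR and 6 after siPIAS1, with median log2 differences of 0.47 and 0.82. EDEM2, which starts the mannose trimming that commits glycoproteins to degradation, had log2 levels of 6.85, 6.72 and 6.98 in siSCR and 7.45, 7.18 and 7.32 with testosterone. In siPIAS1 they were 6.85, 6.86 and 6.96, and 8.26, 8.21 and 8.27 with testosterone. The untreated groups overlapped, and the siPIAS1 arrays with testosterone lay above every other array. EDEM2 rose 1.38-fold after siSCR (0.47 ± 0.10) and 2.56-fold after siPIAS1 (1.36 ± 0.10), an interaction of 0.89 ± 0.14 (adjusted p = 0.00145). Its relative EDEM1 rose by 0.82 ± 0.10 and 1.23 ± 0.10, and its interaction of 0.40 ± 0.14 did not pass (0.0847) but passed without replicate 3 of siPIAS1 with testosterone, at 0.48 (0.0191).

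SELENOS, a selenoprotein of the channel that passes chains to the cytosol, rose without a detectable difference in response between the siRNAs. It had log2 levels of 11.89, 11.80 and 11.86 in siSCR, 12.80, 12.83 and 12.88 with testosterone, 11.95, 12.02 and 11.98 in siPIAS1, and 12.95, 12.93 and 12.76 in siPIAS1 with testosterone. The treated groups overlapped each other. SELENOS rose by 0.99 ± 0.09 and 0.90 ± 0.09, a difference of -0.09 (95% interval -0.36 to 0.18). Its other probes rose by 0.58 and 1.15 after siSCR and by 0.72 and 1.34 after siPIAS1, and neither passed the interaction. Under testosterone the probe with 1.15 was higher with siPIAS1 than with siSCR, by 0.41 (0.0335), while the brightest probe differed by 0.04 and did not pass.

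SYVN1, the ubiquitin ligase of the degradation channel, rose by 0.62 ± 0.15 after siSCR and 0.75 ± 0.15 after siPIAS1. A second SYVN1 probe rose by 0.82 and 1.56, and its interaction of 0.74 did not pass (0.290). SEL1L, the adaptor of SYVN1, was detected on only 4 of 12 arrays, and its differences of 0.03 ± 0.24 and 0.07 ± 0.24 did not pass. DERL2, a channel component, rose by 0.48 ± 0.15 and 1.01 ± 0.15, while its other probe gave -0.02 and 0.04, so its response depends on the probe. DERL1, a related component, rose by 0.46 ± 0.15 after siSCR and differed by 0.28 ± 0.15 after siPIAS1 (adjusted p = 0.116), where it passed without replicate 3 of siPIAS1 with testosterone (0.47, adjusted p = 0.00336). The siSCR calls of DERL1 and DERL2 were lost when single arrays were left out, with adjusted p up to 0.0810 for DERL1 without replicate 2 of siSCR with testosterone and 0.0611 for DERL2 without replicate 3 of siSCR. OS9, a lectin that reads trimmed sugars, differed by 0.34 ± 0.13 after siSCR (0.0512) and rose by 0.38 ± 0.13 after siPIAS1 (0.0254). Without replicate 3 of siPIAS1 with testosterone, OS9 passed after siSCR (0.0303) and its 0.30 after siPIAS1 did not (0.0708).

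Without hormone, 0 of the 28 members were higher and 1 was lower (3.57%) with siPIAS1 than with siSCR, where 7.56% of all genes were higher and 5.77% lower. Counts this small do not set the members apart from all genes. At an unadjusted p under 0.05 in limma, 1 was higher and 3 were lower, with no share of all genes counted at that cut. The one call was DNAJC3 at -0.49 ± 0.13 (adjusted p = 0.0276), whose probe was detected in neither group, so it has no measured level on either side. In 7 members the siPIAS1 arrays all lay below the siSCR arrays (all genes, 20.9%) and in 4 all above (21.6%). The median log2 difference was 0.01 over all members. By role it was 0.23 for the sensor list, -0.10 for chaperones, -0.19 for disulfide enzymes and 0.08 for degradation factors. Without replicate 3 of siPIAS1 with testosterone, which is not an array of this comparison but enters the shared error, 1 member was higher (XBP1) and 3 were lower (DNAJC3, DNAJB11 and PDIA4).

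With testosterone present, 12 of 28 members were higher after siPIAS1 than after siSCR and 0 were lower, where 16.3% of all genes were higher and 17.2% lower. At an unadjusted p under 0.05 it was 16 higher and 0 lower, with no share of all genes counted at that cut. The 12 were XBP1, HSPA5, DNAJB9, HYOU1, SDF2L1, MANF, UGGT1, PDIA4, CRELD2, EDEM1, EDEM2 and DERL2. By their other probes HYOU1 (0.06), UGGT1 (0.26) and DERL2 (0.09) did not pass, and XBP1 (0.37) did. The median log2 difference was 0.32 over the members (0.28 with undetected genes at their bound) and 0.00 over all genes. In 13 members the groups did not overlap with siPIAS1 higher (all genes, 20.4%), and in 1, DNAJC10, with siPIAS1 lower (21.3%). For DNAJC10 the difference was -0.12 without replicate 3 of siPIAS1 with testosterone and did not pass (0.411). The largest differences were EDEM2 at 0.93 ± 0.10 (adjusted p = 1.69e-05), MANF at 0.83 ± 0.11 (8.42e-05) and SDF2L1 at 0.77 ± 0.13. Without replicate 3 of siPIAS1 with testosterone, HYOU1 (0.0718) and UGGT1 (0.0546) no longer passed, while EIF2AK3 (0.43, adjusted p = 0.0318), DNAJC3 (0.39, adjusted p = 0.0366) and SYVN1 (0.54, adjusted p = 0.00123) did.

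The interaction tests whether the testosterone response differed between the siRNAs. It was positive in sign in 23 of 28 members and passed in 8, all with the larger response after siPIAS1, and in 0 with the smaller one, where 4.88% of all genes passed upward and 5.06% downward. At an unadjusted p under 0.05 it was 13 positive and 1 negative, DNAJC10, with no share of all genes counted at that cut. By role the 8 were 0 of 3 in the sensor list with XBP1, 5 of 12 chaperones (HSPA5, DNAJC3, HYOU1, SDF2L1 and MANF), 2 of 5 disulfide enzymes (PDIA4 and CRELD2) and 1 of 8 degradation factors (EDEM2). The median was 0.30 over the members and -0.01 over all genes. Of the 8, DNAJC3 rests on undetected untreated signals, with 0.26 (0.316) when these were raised, and HYOU1 had 0.02 by its other probe (0.965). Without replicate 3 of siPIAS1 with testosterone all 8 still passed, and DNAJB11 (0.42, adjusted p = 0.0351) and EDEM1 passed too. The interaction and the comparisons above share arrays, so their counts are not independent of each other.

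**Figure D4:**
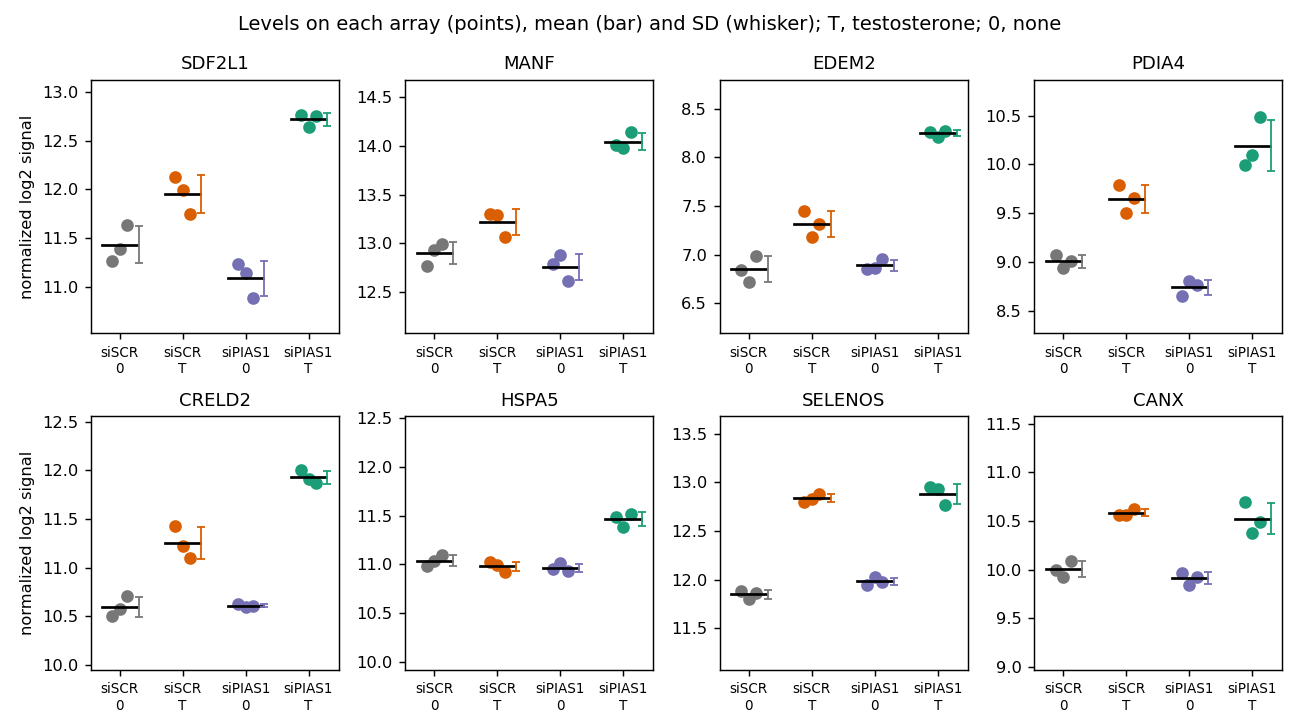
Normalized log2 signal on each array (points) with the group mean (bar) and SD (whisker, 3 arrays) for 6 members that passed the interaction and, as members that did not, SELENOS and CANX. Every panel spans the same log2 range, and in the first 6 panels the siPIAS1 arrays with testosterone lie above every other array, while in SELENOS and CANX both treated groups overlap.

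The promoter motifs shown above were set beside the responses. Of the measured members with a window, 10 held an exact ERSE, ERSE-II or UPRE and 17 held none. After siSCR, 8 of the 10 and 13 of the 17 rose with testosterone, with median log2 differences of 0.55 and 0.62. After siPIAS1 it was 9 of 10 and 15 of 17, with medians of 0.77 and 0.90. The interaction passed in 4 of 10 (HSPA5, HYOU1, SDF2L1 and CRELD2) and 4 of 17 (DNAJC3, MANF, PDIA4 and EDEM2), with the limits given above for HYOU1 and DNAJC3. DNAJB9, with the largest response, held no exact motif in its window, which says only that these letters are absent there.

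Other genes of the same compartment were counted from lists that do not contain the members. Their counts stand against 20.0% of all genes higher and 24.3% lower after siSCR, and 25.4% and 29.7% after siPIAS1. Of 41 measured genes for ER entry and N-glycosylation, 21 rose and 1 fell after siSCR, and 24 rose and 3 fell after siPIAS1. SSR3, a subunit of the complex beside the translocon, rose by 1.89 ± 0.17 and 2.11 ± 0.17, and SEC11C and SPCS3, of the signal peptidase, rose by 1.56 ± 0.11 and 1.31 ± 0.11 after siSCR. Of 5 genes for retrieval to the ER, 4 rose and 0 fell after either siRNA, with KDELR3, a receptor that returns escaped ER proteins, at 1.18 ± 0.12 and 1.08 ± 0.12. TMED2, a cargo receptor of the early secretory pathway, rose by 0.50 ± 0.10 and 0.75 ± 0.10, and ARFGAP3, which acts on Golgi coat vesicles, by 0.63 ± 0.12 and 0.71 ± 0.12. In limma's test the interaction passed for 0 of the 41 and 0 of the 5 genes, and at an unadjusted p under 0.05 for 11 of the 41 (8 positive, 3 negative) and 0 of the 5. In the lists described next it passed for 4 of 28 other ER folding genes (3 positive, 1 negative) and 2 of 11 of the PERK arm (both positive). In the list of ER membrane factors and other genes it passed for 2 of 12 (both negative). It passed for 0 of 23 other degradation genes and 0 of 17 heat shock genes, with 4 and 2 at an unadjusted p under 0.05. No share of all genes was counted at the unadjusted cut for any of these lists.

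Of 28 other ER folding genes, 13 rose and 5 fell after siSCR, and 12 rose and 6 fell after siPIAS1. HSPA13, an HSP70 relative of the microsomes, rose by 1.23 ± 0.14 and 1.40 ± 0.14, and FKBP2, a prolyl isomerase, by 0.71 ± 0.09 and 0.80 ± 0.09. ERO1B, an oxidase that recharges disulfide isomerases, was undetected in siSCR and at least 1.59-fold higher with testosterone. It was also at least 1.48-fold higher in siPIAS1 than in siSCR without hormone (adjusted p = 7.58e-04), a comparison in which 0 of the 5 measured disulfide enzymes passed in limma's test, also at an unadjusted p under 0.05. Of 23 other ER degradation genes, 7 rose and 3 fell after siSCR, and 11 rose and 2 fell after siPIAS1. Among them the ubiquitin ligase MARCHF6 fell by 0.57 and 0.91 on the log2 scale and the conjugating enzyme UBE2G2 by 0.55 and 0.88, while TRAM1, a translocon-associated protein that this list held, rose by 0.59 ± 0.11 and 0.34 ± 0.11.

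The arm downstream of PERK had 11 measured genes, of which 6 rose and 0 fell after either siRNA. ATF3, a stress-induced transcription factor, was undetected without testosterone and at least 3.07-fold higher with it after siSCR and at least 1.95-fold higher after siPIAS1. Its level under testosterone was lower with siPIAS1 than with siSCR, by -0.62 ± 0.15 (adjusted p = 0.00653). DDIT3, which encodes CHOP, a factor tied to prolonged stress, rose by 0.74 ± 0.14 and 0.98 ± 0.14. ATF4, whose control is largely translational, rose by 0.28 ± 0.10 after siSCR (0.0323) and differed by 0.14 ± 0.10 after siPIAS1 (0.246). CEBPB, a partner of these factors, rose by 0.36 ± 0.13 and 1.01 ± 0.13, with an interaction of 0.65 ± 0.18 (0.0403).

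A list of ER membrane transcription factors with their proteases also held other genes (WFS1, ERN2, TRAF2, MAP3K5, BAK1, BAX and TMBIM6). Of its 12 measured genes, 6 rose and 2 fell after siSCR, and 6 rose and 1 fell after siPIAS1. CREB3L4, an ER-anchored factor of the prostate known as AIbZIP, rose by 1.62 ± 0.10 and 1.05 ± 0.10, and its interaction of -0.57 ± 0.15 passed in the opposite direction to the members (adjusted p = 0.0260). CREB3L2 rose by 0.84 ± 0.10 and 1.29 ± 0.10, and its interaction of 0.45 ± 0.14 did not pass (0.0664). MAP3K5, a stress kinase that acts after IRE1 and that the list also held, fell by 1.28 and 1.37 on the log2 scale. A list of heat shock genes, taken for comparison with the ER set, was mostly cytosolic but also held HSPD1 and HSPE1 of the mitochondria. Of its 17 measured genes, 4 rose (23.5%) and 1 fell after siSCR, and 6 rose (35.3%) and 3 fell after siPIAS1. Among all genes 20.0% and 25.4% rose. HSPB1, a small heat shock protein, fell by 0.66 and 0.96 on the log2 scale, and BAG3, a co-chaperone, and DNAJB1, a partner of cytosolic HSP70, rose by 0.40 ± 0.10 and 0.56 ± 0.12 after siSCR.

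**Figure D5:**
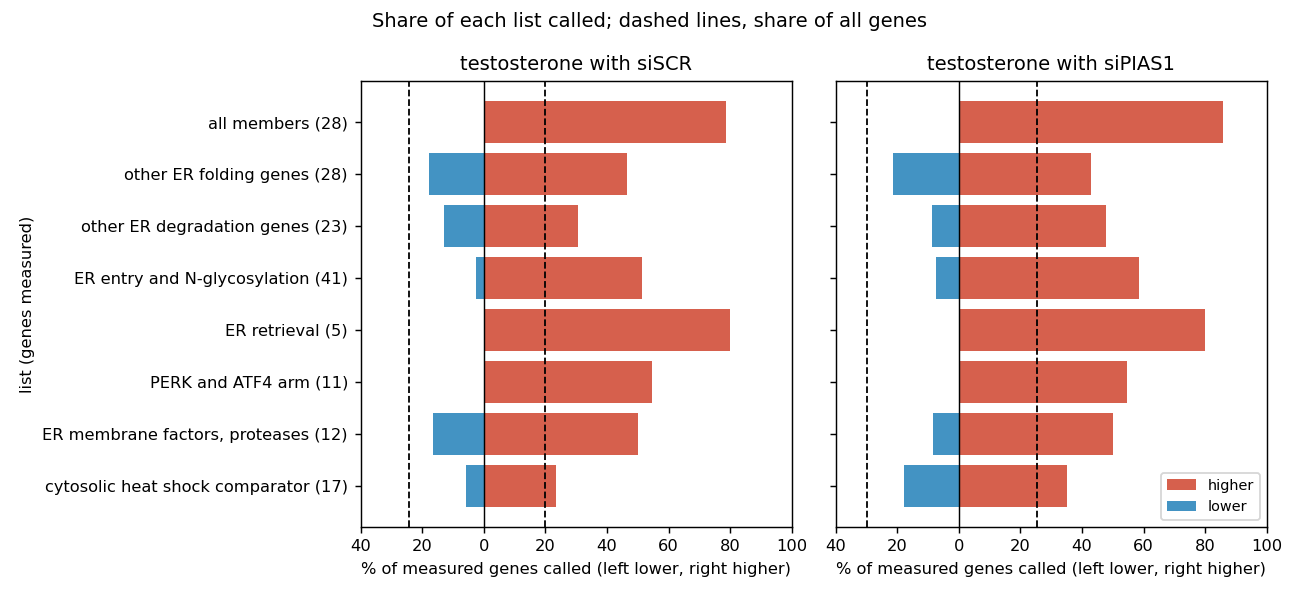
Share of the measured genes of each list that rose (right, red) or fell (left, blue) with testosterone after siSCR and after siPIAS1, with the share of all 10710 genes as dashed lines. The members have 22 and 24 of 28 higher and 0 lower, ER entry 21 and 24 of 41 higher, and the heat shock comparator 4 and 6 of 17 higher.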

How the data were processed

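The authors deposited 1 intensity per probe and array without normalization, per the file headers, with a detection p-value beside it, and also deposited log2 values that they had normalized. Lumi is named in the submitters' processing notes, with settings not given in the sources used here. Background correction and quantile normalization of the intensities used neqc (limma 3.58.1, R 4.3.3; offset 16). Probes were named from the platform annotation with symbols updated through RefSeq. Probes detected at p under 0.01 on at least 3 arrays were kept, and the brightest stood for its gene, which gave 10710 genes, of which 2707 had more than 1 detected probe. Per array, 32.5% to 36.0% of 47323 probes were detected, and the number of arrays limits the precision (median SE of a difference 0.126).

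One limma model of 4 group means was fitted to all 12 arrays and tested on simulated data. P-values were two-sided and adjusted over all genes by the Benjamini-Hochberg method (threshold 0.05). An exact permutation test of 3 against 3 arrays cannot go below 0.1 and was not used. Differences are log2 ± SE, and an adjusted p in parentheses is limma's. Named genes were all listed members, PIAS1, and of each further list up to 3 genes with the smallest p for testosterone averaged over both siRNAs, plus ATF4 and DDIT3. The members and lists were chosen with earlier results of these data known. Levels of different probes were not compared. Alternatives changed the background correction, scaling, detection filter, probe choice, array weights, arrays in the fit and replicate block, or used the authors' log2 values, whose transform stays unknown (column medians 7.60 to 7.61; slopes against log2 signal 0.958 to 1.02; direction kept).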

Additional observations from a re-analysis of the deposited data

Results flagged for a closer look

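For 10 genes the response to testosterone differed between the siRNAs by limma's interaction test, given here as the log2 response after siPIAS1 minus that after siSCR. Among the members these were SDF2L1 (1.11), MANF (0.97), EDEM2 (0.89), PDIA4 (0.81), CRELD2 (0.66), HSPA5 (0.55) and HYOU1 (0.46, and 0.02 by its other probe). DNAJC3 met the same test (0.78), but its probe was undetected on the untreated arrays and the value was 0.26 with undetected signals raised (adjusted p = 0.316). Among the named genes of the further lists these were CEBPB (0.65) and CREB3L4 (-0.57). Of the markers, LYZ also had its highest level in siPIAS1 with testosterone. Of the 12 measured luminal markers, 5 were higher and 3 lower with siPIAS1 than with siSCR under testosterone. The part of these markers in the differences was not tested.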

How the results depend on the processing

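In every alternative in which they were tested, further probes included, 25 of the 26 members called for testosterone averaged over both siRNAs still passed (DERL2 did not by its other probe), as did 17 of 22 after siSCR, 22 of 24 after siPIAS1 (not OS9 and DERL2), 7 of 12 for siPIAS1 with testosterone and 6 of 8 for the interaction, where the calls of DNAJC3 and HYOU1 were lost in some. DNAJC3, PPIB and SEL1L could not be tested when detection on all arrays was required. Leaving out single arrays gave 17 to 24, 23 to 25, 9 to 13 and 6 to 10 members higher in these last 4 comparisons, and 26 for the average. Calls lost without single arrays, beside those given above, were for siPIAS1 with testosterone DNAJB9 without replicate 1 of treated siSCR (adjusted p = 0.0552), DERL2 without its replicate 3 (0.0586), UGGT1 without its replicate 2 or 3 (up to 0.0928) and HYOU1 without any array other than replicate 2 of either treated group (up to 0.113), for the interaction DNAJC3 without replicate 3 of treated siSCR (0.0548) and HYOU1 without any array other than those replicates 2 and replicate 3 of treated siPIAS1 (up to 0.0960), and for testosterone after siPIAS1 OS9 without replicate 1 (0.105) or 3 (0.0540) of untreated siPIAS1. For siPIAS1 without testosterone, members higher numbered 0 as reported and 1 with the authors' values, 1 without background correction, 1 with the compared groups alone and 2 with array weights, or 0 to 1 leaving out single arrays. Members lower numbered 1 as reported, 0 with the authors' values, no background correction, an offset of 50, undetected signals raised, or detection on all arrays (25 members tested), 3 with 75th percentile scaling or the compared groups alone, and 6 with array weights, or 0 to 3 leaving out single arrays. The cause was not tested. DERL2 after siSCR reversed with its other probe (-0.0157), and DNAJC3 for siPIAS1 without testosterone reversed with undetected signals raised (0.0355). Between arrays with the same replicate number, deviations from the group means correlated from -0.26 to 0.19. With 3 arrays per group these values can neither show nor exclude a pairing. With the replicate block the members higher numbered 22 after siSCR and HYOU1 lost its calls for siPIAS1 with testosterone (adjusted p = 0.0637) and the interaction (0.0665). A slide block was not run because the headers name no slide. Signal over background limits DNAJC3, SEL1L and PPIB most.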
